A study of Homo sapiens with 6 samples.

Results

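The SNARE and membrane fusion genes described here are 41 listed genes: 9 R-SNAREs, 10 Qa-SNAREs, 5 Qb-SNAREs, 6 Qc-SNAREs, 4 SNAP-type Qbc-SNAREs, 2 Sec1/Munc18 (SM) proteins, 4 genes of the SNARE disassembly machinery, and the active zone gene RIMS2. They were chosen by name, and each was read from its single-gene probe set that was brightest on average over the 6 arrays. All 41 had such a probe set, among 19775 genes that did. All 41 also passed the filter on dim probe sets, as did 13738 genes in all. VAMP5 (2 arrays) and STXBP2 (3 arrays) passed through AGS arrays alone, so both had to differ between the lines.

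AGS and HGC-27 are human gastric cancer cell lines, and each was measured untransfected (parental), after empty vector with GFP (the GFP control), and after MIST1 with GFP. MIST1 (BHLHA15) is a basic helix-loop-helix transcription factor of secretory cells, and the series sought genes that rise when it is expressed transiently. Both transfected groups received 3 µg of plasmid (MIST1, or empty vector in the control) and 1.5 µg of pmaxGFP by nucleofection, were sorted on GFP fluorescence after 24 h, and harvested after 24 h more. Each line and condition had 1 array, and no label says that parental cells were nucleofected or sorted, so the GFP control differs from them in vector, nucleofection and sorting together. Both transfected groups are transient populations, and all 3 groups are of established tumour lines, with the promoter driving MIST1 not given in the sources used here. With 1 array per line and condition, the 2 lines are the only replicates of a condition, and p-values measure the spread between these arrays.

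SNAREs are short membrane-anchored proteins that drive the fusion of a vesicle with its target membrane. An R-SNARE on one membrane zippers with Qa, Qb and Qc helices on the other into a 4-helix bundle, and the SNAP-type members supply the Qb and Qc helices from one chain. SM proteins hold the Qa-SNARE and guide assembly. After fusion, the ATPase NSF and the SNAP adaptors (NAPA, NAPB, NAPG) take the spent bundle apart. In secretory epithelia, VAMP8 serves regulated granule release, while STX3 and STXBP2 (Munc18-2) act at the apical membrane.

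The promoter sequences of VAMP8, STX3 and STXBP2 are shown because these 3 members differed most between the lines. Each is the 250 bases before a transcription start in the RefSeq GRCh38.p14 table, 5′ to 3′ on the plus strand of the chromosome. Capitals mark E-boxes, the letters CANNTG to which basic helix-loop-helix factors can bind. The windows are chr2:85577336-85577585 for VAMP8, chr11:59755126-59755375 for STX3, and chr19:7636860-7637109 and chr19:7629543-7629792 for the 2 starts of STXBP2.
VAMP8: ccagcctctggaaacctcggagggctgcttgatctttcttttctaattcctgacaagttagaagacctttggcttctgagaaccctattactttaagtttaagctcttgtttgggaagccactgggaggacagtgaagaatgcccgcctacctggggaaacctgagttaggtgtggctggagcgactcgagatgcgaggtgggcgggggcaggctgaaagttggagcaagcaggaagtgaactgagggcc
STX3: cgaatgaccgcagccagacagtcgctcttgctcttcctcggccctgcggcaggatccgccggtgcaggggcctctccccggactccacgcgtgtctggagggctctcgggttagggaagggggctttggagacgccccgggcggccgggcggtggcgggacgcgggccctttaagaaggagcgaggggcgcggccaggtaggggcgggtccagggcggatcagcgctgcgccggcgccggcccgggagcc
STXBP2, first window: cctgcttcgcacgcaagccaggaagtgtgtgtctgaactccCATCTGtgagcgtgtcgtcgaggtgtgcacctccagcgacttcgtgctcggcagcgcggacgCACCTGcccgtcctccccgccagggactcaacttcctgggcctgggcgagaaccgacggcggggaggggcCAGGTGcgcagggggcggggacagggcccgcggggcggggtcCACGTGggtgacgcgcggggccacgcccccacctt
STXBP2, second window: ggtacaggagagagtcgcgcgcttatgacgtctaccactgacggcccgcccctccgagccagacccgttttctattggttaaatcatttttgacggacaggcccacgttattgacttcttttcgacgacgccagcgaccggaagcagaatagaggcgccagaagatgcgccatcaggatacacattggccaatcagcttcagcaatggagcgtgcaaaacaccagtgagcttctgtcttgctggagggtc
The first STXBP2 window held 4 E-boxes, and the VAMP8, STX3 and second STXBP2 windows held 0. The VAMP8 window had 6 CpG dinucleotides and the STX3 window 30, with 27 and 18 in the 2 STXBP2 windows. Of the 41 members, 36 matched the table with 48 windows in all. CANNTG, which reads the same on both strands, was in 64.6% of the members' windows and in 61.8% of 35116 windows of all genes. The E-box form CAGCTG, contained in CANNTG, was in 8.33% of the members' windows against 14.0% of all. The form CATATG, also contained in it, was in 0% against 2.63%. The GC box GGGCGG, searched on both strands, was in 62.5% of the members' windows and 42.6% of all. The median number of CpG dinucleotides was 22 in the members' windows and 11 in all. These are matches of letters, not measured binding sites.

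The medians of the 6 arrays were close together, from 49.12 to 51.96 in deposited intensity. The gastric epithelial list (11 genes, 9 of which passed the filter) summed to 42926 to 49987 in AGS and 1679 to 1935 in HGC-27. The mesenchymal list (6 genes) summed to 1054 to 1678 in AGS and 27206 to 29705 in HGC-27. Epithelial keratin 19 (KRT19) was under the floor of 17.6 on all 3 HGC-27 arrays, and the gastric gene TFF2 was under it on all 6, while keratin 8 (KRT8) still read 1350 to 1562 in HGC-27. Of the 9 epithelial genes tested, 7 were called higher in AGS, against 33.2% of all genes tested. A gene under the floor on all 3 HGC-27 arrays, as KRT19 was, could pass the filter only through AGS. For such a gene the filter fixed the direction of the difference. Leukocyte and endothelial lists summed to 62.4 to 144. The single-gene probe set of BHLHA15 read 66.3, 75.9 and 72.5 in parental, GFP and MIST1 AGS, against 41.1, 61.9 and 58.7 in HGC-27. It was not higher on the arrays labelled MIST1 than on the GFP controls. The sources used here do not say whether it lies within the transfected insert, so it does not check that label, and directions below rest on the labels.

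Most of the 41 members gave signal in both lines. In 38 of them each array exceeded 50.53, the median of all values, and the other 3 were VAMP5, STXBP2 and RIMS2. At least 1 array of each line exceeded it for 39 of the 41, and for 11972 of the 13738 genes tested. The heatmap of the members' log2 intensities shows the steps between lines at VAMP8, STXBP2, STX3 and VAMP5, and smaller steps between the parental and the transfected columns at VAMP2 and STX1A. Intensities of different probe sets depend on the probes, so a row is read across arrays and not against other rows.

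**Figure D1:**
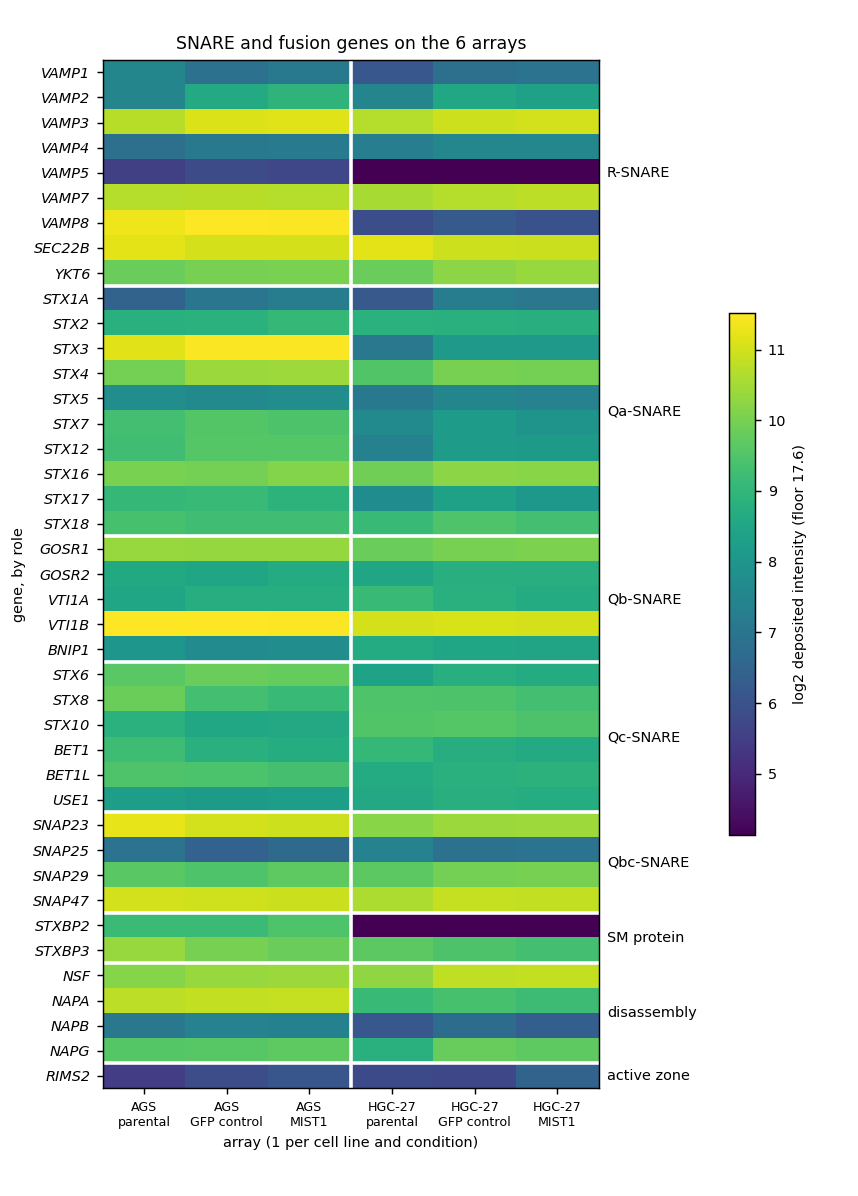
Each row is 1 of the 41 members, grouped by role, and each column is 1 of the 6 arrays. Colour gives log2 deposited intensity with a floor of 17.6. VAMP8, STX3, STXBP2 and VAMP5 change colour between the AGS and HGC-27 columns, and VAMP2 between the parental and transfected columns.

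The first comparison asked how far the fusion genes differed between AGS and HGC-27. In limma's fit, 16 of 41 members (39.0%) were higher in AGS and 6 (14.6%) were lower, at an adjusted p under 0.05 over all genes. The background was 33.2% of all genes tested higher and 27.3% lower, so the share higher lay near the background and the share lower below it. At least 2-fold and called, 8 members (19.5%) were higher in AGS, against 15.4% of all genes, and 0 were lower, against 12.8%. These counts include STXBP2 and VAMP5, whose difference the filter fixed. Among the 39 members with at least 1 array of each line over the median of all values, 14 (35.9%) were higher and 6 (15.4%) lower. Over the 11972 such genes these shares were 32.4% and 23.5%. At least 2-fold, 6 of the 39 were higher (15.4%) and 0 lower, against 12.5% and 7.54%. The arrays of the lines did not overlap for 21 members (51.2%), against 61.7% of all genes. The median difference over the members was 0.17 on the log2 scale, against 0.06 over all genes tested. After quantile normalization it was 0.04 over the members, against -0.02 over all genes. Here the 3 conditions serve as the replicates of a line, and its p-values leave out the variation between cultures of 1 condition. The epithelial and mesenchymal sums given above move with it, and their part in these differences was not tested.

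Among the R-SNAREs, VAMP8 gave the largest fitted difference of any member, with that of STXBP2 known only as a lower bound. VAMP8, which serves endosomes and secretory granules, read 2584, 2922 and 2856 in parental, GFP and MIST1 AGS. In HGC-27 it read 59.8, 74.8 and 64.4, close to the median of all values. The AGS arrays were all far above the HGC-27 arrays. The difference was 42.2-fold (log2 5.40, SE 0.11, n = 3 arrays a line, limma adjusted p = 3.38e-07), with 43.2-fold in parental cells, 39.1-fold in GFP controls and 44.3-fold under MIST1. VAMP5, an R-SNARE of the plasma membrane known from muscle, read 46.7, 56.3 and 51.8 in AGS. It was under the floor on all 3 HGC-27 arrays (11.4, 9.79 and 3.75), which makes its AGS level at least 2.92-fold higher. No test is given, since VAMP5 passed the filter through AGS alone. VAMP4, which works between the trans-Golgi and endosomes, was 1.33-fold higher in HGC-27 (adjusted p = 0.0262), where its arrays read 158, 186 and 189 against 116, 140 and 144 in AGS. The other 6 R-SNAREs did not pass the test, with VAMP3 reading 1677, 2229 and 2292 in AGS, against 1665, 1997 and 2061 in HGC-27.

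The Qa-SNAREs, the syntaxins that anchor the target membrane, gave 5 of 10 called higher in AGS and 0 lower, where 33.2% and 27.3% of all genes were. STX3, the apical plasma membrane syntaxin, read 2331, 2847 and 2843 in AGS, against 138, 274 and 276 in HGC-27. Its groups did not overlap, and the HGC-27 parental array was the lowest. The difference was 12.2-fold (log2 3.61, SE 0.16, limma adjusted p = 3.99e-06). It was 16.9-fold between parental arrays, 10.4-fold between GFP controls and 10.3-fold between MIST1 arrays. A second STX3 probe set read 806, 869 and 903 against 24.8, 94.5 and 75.8, a 15.3-fold difference, while the third was dim in both lines. STX12, an endosomal syntaxin, read 604, 767 and 756 in AGS, against 167, 290 and 283 in HGC-27 (2.95-fold, adjusted p = 8.29e-05). STX7, which works at late endosomes and lysosomes, read 634, 745 and 703 against 199, 296 and 248 (2.83-fold, adjusted p = 5.52e-05). STX17, which joins autophagosomes to lysosomes, read 531, 565 and 480 against 210, 326 and 267 (1.99-fold, adjusted p = 0.00104). All 4 other passing STX17 probe sets were higher in AGS too, by 2.06-fold to 3.17-fold. STX4, the basolateral syntaxin, was 1.36-fold higher in AGS (adjusted p = 0.00402). STX1A, STX2, STX5, STX16 and STX18 did not pass the test.

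The Qb and Qc groups were mixed. STX6, a Qc-SNARE of the trans-Golgi, read 790, 908 and 869 in AGS, against 345, 442 and 409 in HGC-27 (2.16-fold, adjusted p = 0.000116). BET1L, of the Golgi, was 1.55-fold higher in AGS (adjusted p = 0.00291), and GOSR1, also of the Golgi, was 1.31-fold higher (adjusted p = 0.0106). Of the other GOSR1 probe sets that passed, one was 1.47-fold higher in AGS and one 1.14-fold higher in HGC-27. STX10, a Qc-SNARE of the trans-Golgi, went the other way. It read 458, 374 and 384 in AGS, against 730, 764 and 700 in HGC-27, 1.81-fold higher there (adjusted p = 0.000709). BNIP1 and USE1, which act in retrograde traffic to the endoplasmic reticulum, were 1.63-fold and 1.38-fold higher in HGC-27 (adjusted p = 0.00164 and 0.0116). VTI1B was called 1.37-fold higher in AGS (adjusted p = 0.000857) from the probe set used, but its other 2 probe sets were higher in HGC-27. One of these read 340, 389 and 400 in AGS, against 559, 724 and 663 in HGC-27, so VTI1B has no settled direction here. GOSR2, VTI1A, STX8 and BET1 did not pass the test.

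Among the SNAP-type members, SNAP23, the form found widely outside neurons, was 1.64-fold higher in AGS (adjusted p = 0.00169), with readings of 2397, 2046 and 1974 against 1174, 1365 and 1369. SNAP25, the neuronal form, was 1.31-fold higher in HGC-27 (adjusted p = 0.0461). Its arrays read 124, 88.2 and 102 in AGS, against 168, 121 and 123 in HGC-27, with overlapping groups. Of the 5 tested genes of the neuronal and neuroendocrine list, 3 (SYT1, ENO2 and INSM1) were called higher in HGC-27 and 1 (TUBB3) higher in AGS. Of all genes tested, 27.3% were called higher in HGC-27 and 33.2% higher in AGS. SYT1 was under the median of all values on every AGS array. It passed the filter through HGC-27 alone, which fixed its direction. That list summed to 7779 to 9505 in AGS and 7611 to 8035 in HGC-27, and its part in the SNAP25 difference was not tested. SYP, CHGA and CHGB of the list did not pass the filter on dim values. SNAP29 and SNAP47 did not pass the test.

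Both SM proteins read higher in AGS from the probe set used. STXBP2, the partner of STX3 and STX11, read 576, 579 and 720 in AGS, against 8.74, 8.0 and 4.98 in HGC-27. All 3 HGC-27 values lay under the floor, so its AGS level was at least 35.3-fold higher (log2 5.14). No test is given, since it passed the filter through AGS alone. Its other probe set did not pass the filter on dim values. STXBP3, the partner of STX4, was 1.51-fold higher in AGS (adjusted p = 0.00162), with 1326, 1030 and 909 against 808, 701 and 634. Its other probe set, far dimmer, was 1.83-fold higher in HGC-27, with 34.8, 25.9 and 26.99 in AGS against 41.7, 68.1 and 52.7, so STXBP3 has no settled direction here.

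In the disassembly machinery, NAPA (alpha-SNAP) read 1760, 1827 and 1871 in AGS, against 556, 664 and 584 in HGC-27. It was 3.03-fold higher in AGS (adjusted p = 1.31e-05), and its other probe set gave 2.91-fold. NAPB (beta-SNAP) read 137, 169 and 167 in AGS, against 70.9, 106 and 80.8 in HGC-27 (1.85-fold, adjusted p = 0.00196). NSF, the ATPase itself, was 1.27-fold higher in HGC-27 (adjusted p = 0.0232), and its groups overlapped. One of its other 2 probe sets had the opposite sign, 1.08-fold higher in AGS. NAPG did not pass the test. Over the 19 members that did not pass, differences ran from -0.28 (SNAP29) to 0.54 (VAMP1) on the log2 scale. Across all members, 27 genes had 57 other passing probe sets, and 38 of these had the same sign of the line difference as the one used. Of the called members, 16 had such a probe set, and for 4 of them (GOSR1, VTI1B, STXBP3 and NSF) at least 1 had the opposite sign.

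**Figure D2:**
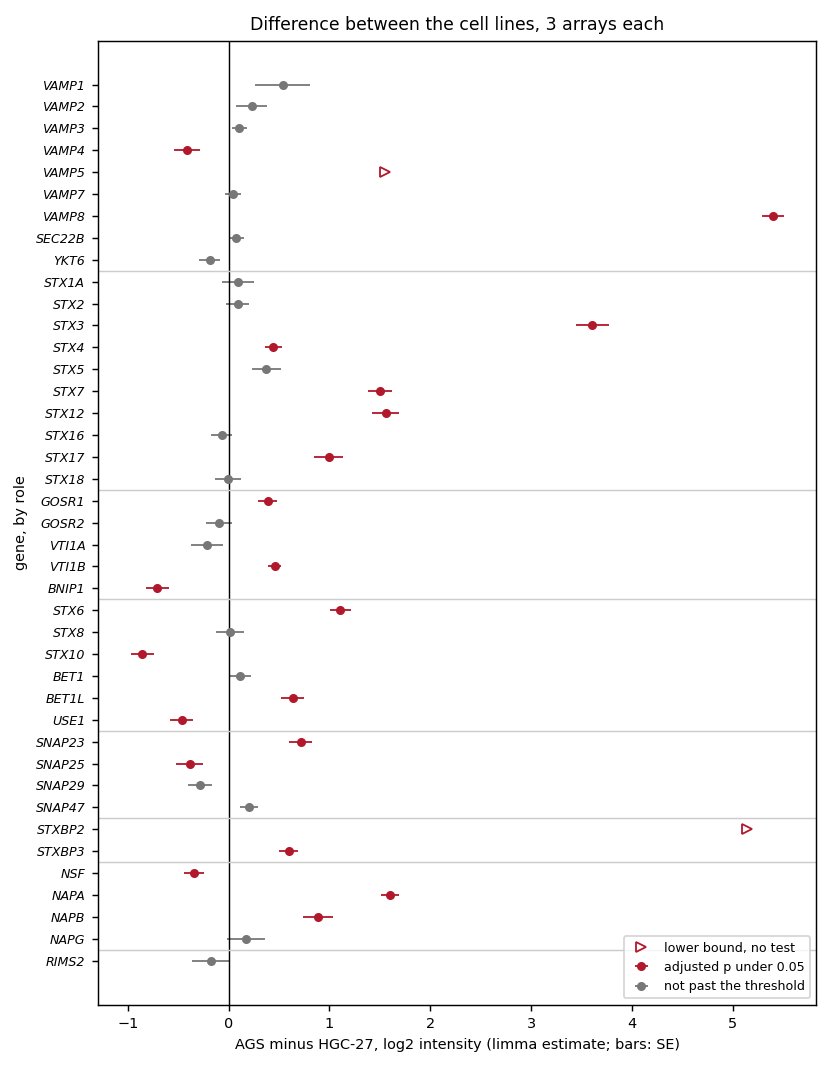
Each point is the limma estimate of AGS minus HGC-27 for 1 member on the log2 intensity axis, grouped by role, with its SE as the bar, 3 arrays a line, and red for an adjusted p under 0.05. VAMP8 (5.40), STXBP2 (5.14) and STX3 (3.61) lie apart from the other members. The open triangles of STXBP2 and VAMP5 are lower bounds, with no test, because HGC-27 was under the floor.

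Genes that work with the SNAREs were read from 4 lists. Of 17 tested SM proteins and fusion regulators, 5 were called higher and 4 lower in AGS. UNC13D (Munc13-4), a priming factor of granule release, read 465, 636 and 724 in AGS, against 6.82, 1.67 and 5.41 in HGC-27, all under the floor, and like STXBP2 it passed the filter through AGS alone. STX11, a partner of STXBP2, read 27.5, 28.2 and 33.1 in AGS, against 19.6, 51.3 and 52.4 in HGC-27, and did not pass the test (adjusted p = 0.36). Of 15 tested calcium sensors, synaptotagmins and synaptotagmin-like Rab effectors, 6 were higher and 2 lower. The Rab27 effector SYTL2 read 1842, 2546 and 2267 in AGS, against 10.4, 10.3 and 3.88 in HGC-27. SYT1, the calcium sensor of neuronal release, went the other way, with 28.7, 38.6 and 42.7 in AGS, against 469, 716 and 688 in HGC-27. SYTL2 passed the filter through AGS alone and SYT1 through HGC-27 alone. The filter thus fixed the direction of both, and they are among the 15. Of the 9 exocyst subunits, which tether vesicles to the plasma membrane, 6 were higher and 1 lower, with EXOC6B at 338, 447 and 476 against 44.0, 74.4 and 71.2. Of 22 other tethers, 5 were higher and 4 lower. The background for these counts is again 33.2% higher and 27.3% lower.

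**Figure D3:**
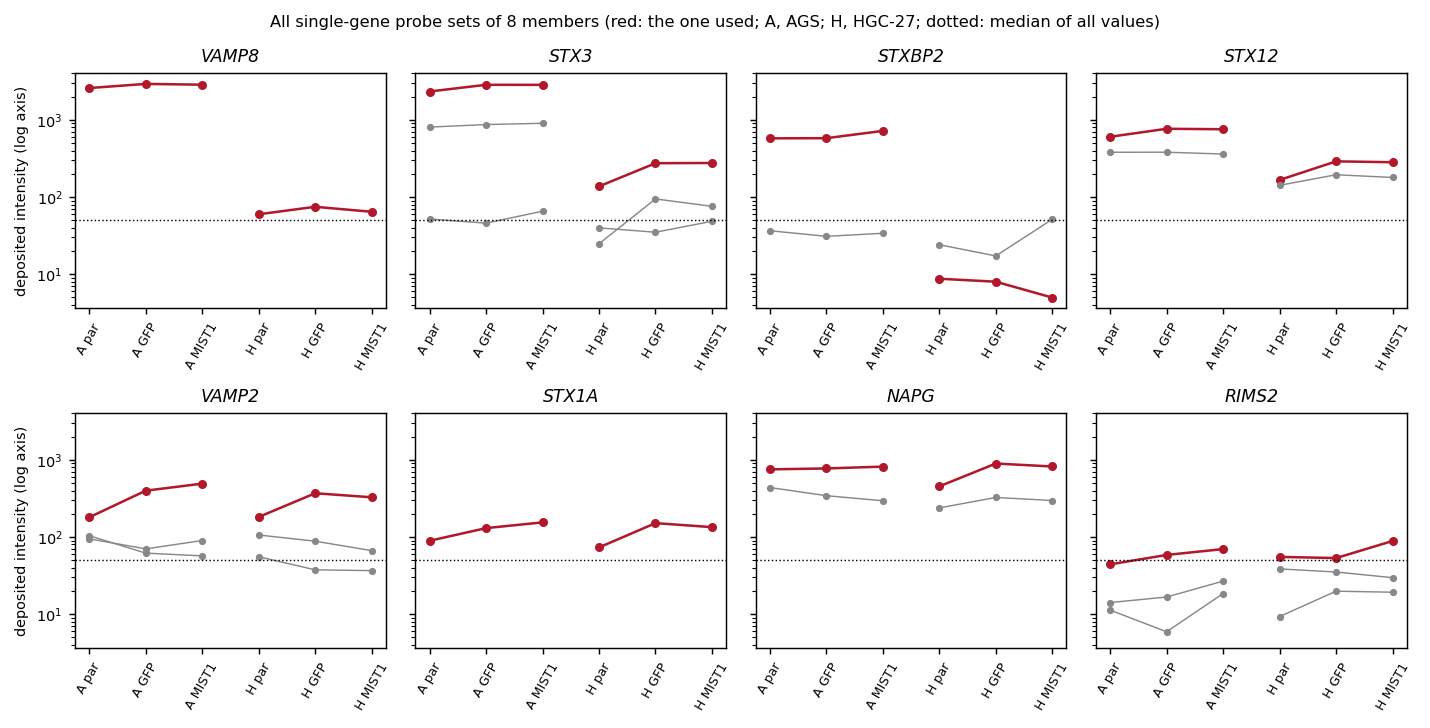
Each panel shows all single-gene probe sets of 1 of 8 members on the 6 arrays, as deposited intensity on a log axis, with the probe set used in red and the median of all values dotted. STX3 has 2 probe sets with the same step between the lines, and VAMP2 has 1 probe set that is higher after transfection and 2 that are not.

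The second comparison, of GFP control against parental cells, measured vector, nucleofection and sorting together. In limma's fit 0 of 41 members passed at an adjusted p under 0.05, against 0.247% of all genes. At an unadjusted p under 0.05, 12 members (29.3%) passed, against 23.0% of all genes. In both lines 18 members (43.9%) were higher after transfection and 6 (14.6%) were lower, against 37.1% and 23.4% of all genes. The all-gene median was unmoved in AGS (0) and 0.12 higher in HGC-27 on the log2 scale, and after quantile normalization 0.03 and 0.02. The members' medians were 0.02 in AGS and 0.26 in HGC-27, and after quantile normalization 0.08 and 0.18. Then 21 members (51.2%) were higher in both lines and 6 (14.6%) lower, against 35.4% and 27.7% of all genes. At least 1.5-fold higher in both lines was 1 member (2.44%, VAMP2), against 3.12% of all genes, and 0 were as much lower, against 1.55%. RNA-state genes moved with this comparison. The nuclear RNA MALAT1 went from 3685 to 390 (AGS) and from 1566 to 324 (HGC-27), and the list (3 genes measured) summed to 4863 and 2562 in parental cells and 663 and 561 in GFP controls. All 3 probe sets of 18S ribosomal RNA read lower in both lines. The middle one went from 1142 to 48.2 (AGS) and from 371 to 52.0 (HGC-27), the 3′ one from 1791 to 809 and from 1315 to 776, and the 5′ one from 566 to 63.1 and from 141 to 109. The part of these in the members' changes was not tested.

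VAMP2, an R-SNARE of secretory vesicles, read 180 in parental AGS, 398 after empty vector and 492 where MIST1 was labelled. The HGC-27 readings were 182, 369 and 327. Both transfected arrays were above the parental array in each line, and the GFP control was 2.12-fold the parental level (log2 1.08, SE 0.18, limma adjusted p = 0.0575). In a fit of only the 4 arrays compared its adjusted p was 0.00051. That fit left 1 residual degree of freedom and took each gene's spread from a trend over all genes, not from the gene itself. This also holds for the 4-array values of STX1A and STX3 below. The other 2 probe sets of VAMP2 went the other way in both lines. The first went from 104 to 61.8 (AGS) and from 55.5 to 37.5 (HGC-27), and the second from 94.7 to 70.2 and from 106 to 88.2. With all VAMP2 probe sets averaged, the difference was 0.03 (adjusted p = 0.941), so VAMP2 has no settled direction over its probe sets.

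STX1A, the plasma membrane syntaxin of neurons and endocrine cells, read 89.3, 130 and 155 in AGS, against 73.3, 151 and 134 in HGC-27. Its GFP control was 1.74-fold the parental level (log2 0.80, SE 0.19, adjusted p = 0.0928, and 0.0499 in the 4-array fit). It has 1 probe set on the array. STX3, whose readings are given above, was 0.29 higher in AGS and 1.0 higher in HGC-27 on the log2 scale (mean 0.64, SE 0.20, adjusted p = 0.133, and 0.0357 in the 4-array fit). STX12 was 0.34 and 0.80 higher (mean 0.57, SE 0.16, adjusted p = 0.121). STX4 read 1013, 1358 and 1371 in AGS, against 722, 1032 and 1010 in HGC-27, a log2 difference of 0.47 (SE 0.10, adjusted p = 0.0814). All 3 passing probe sets of VAMP3, the R-SNARE of recycling endosomes, were higher in GFP controls than in parental cells of both lines. Of the 10 Qa-SNAREs, 6 read higher in each line (8 after quantile normalization) and 0 read lower in each. The matching all-gene shares were 37.1% and 23.4%, and after quantile normalization 35.4% and 27.7%. Other passing probe sets of STX4, STX7 and STX12 also rose in each line, some only slightly in AGS (STX12 from 380 to 381). Those of STX3 and STX17 were mixed. The dim STX3 one fell from 51.9 to 45.9 (AGS) and from 39.9 to 35.0 (HGC-27). A STX17 one fell from 252 to 229 and from 105 to 79.2, and another fell only in AGS. The rest of both genes rose in each line. All 4 genes of the disassembly machinery were higher in both lines, as they were after quantile normalization, and 0 of the 4 passed the test. For NSF this holds for the probe set used, which read 1153, 1321 and 1342 in AGS, against 1247, 1799 and 1844 in HGC-27. One of its other probe sets, far dimmer, went from 87.95 to 69.85 (AGS) and from 111 to 86.4 (HGC-27). NAPG (gamma-SNAP) read 752, 773 and 816 in AGS, against 453, 895 and 820 in HGC-27, a log2 difference of 0.04 in AGS and 0.98 in HGC-27, and whether the lines differ was not tested. Its other probe set was lower in AGS after transfection, from 438 to 343, and higher in HGC-27, from 238 to 325. The other NAPA probe set did likewise, from 881 to 755 (AGS) and from 266 to 325 (HGC-27). So for NSF, NAPA and NAPG the higher reading in both lines rests on the probe set used.

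The 6 members lower in both lines were SEC22B, BNIP1, STX8, BET1, SNAP25 and STXBP3, and 0 of them passed the test. SNAP25 had the lowest mean difference, -0.48 (SE 0.17, adjusted p = 0.159). BET1, of traffic between the endoplasmic reticulum and Golgi, read 598, 454 and 419 in AGS, against 528, 422 and 400 in HGC-27. STX8, of late endosomes, read 928, 640 and 548 in AGS, against 718, 700 and 631 in HGC-27. On the probe sets used, the parental array had the highest reading of its line for all 6. Other passing probe sets did not repeat this for SEC22B, BNIP1 and STXBP3. A far dimmer one of SEC22B went from 50.4 to 51.2 (AGS) and from 8.96 to 28.0 (HGC-27). That of STXBP3 went from 34.8 to 25.9 and from 41.7 to 68.1. The other 2 of BNIP1 were lower in AGS and higher in HGC-27.

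The number of calls moved with the arrays in the fit. Leaving out a parental or a GFP array leaves that group with 1 array, from 1 line. The spread of its change between the lines is then not measured, so no count is given for those fits. Without the MIST1 array of AGS 2 passed (4.88%, against 6.59%), and without that of HGC-27 3 passed (7.32%, against 6.73%).

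**Figure D4:**
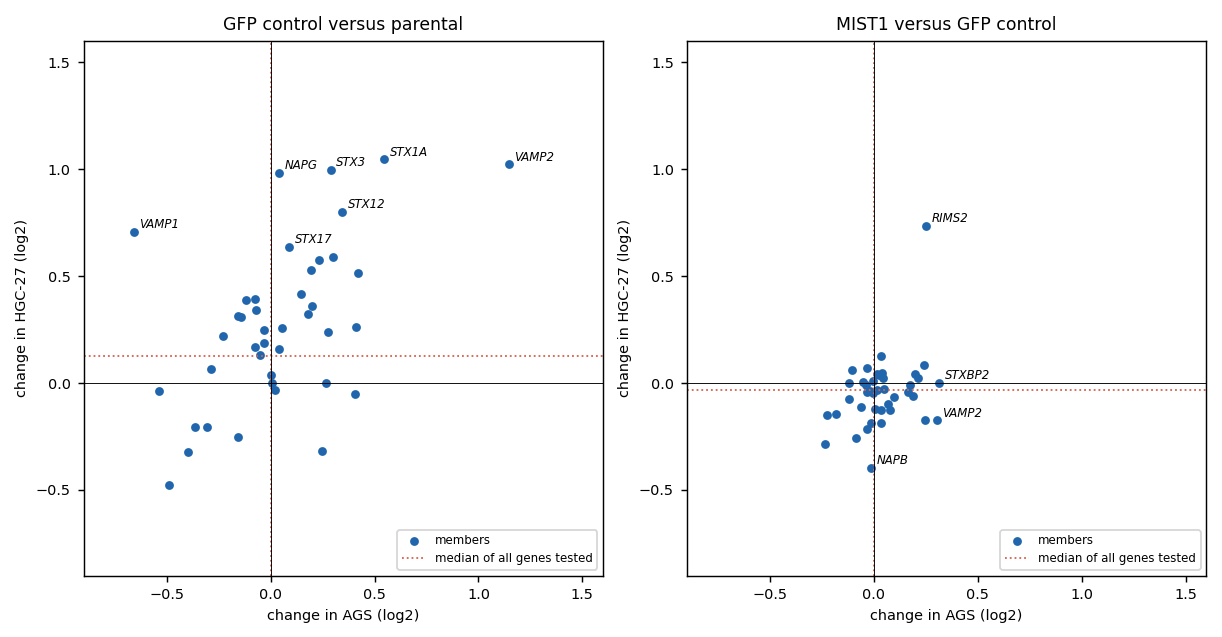
Each point is 1 member, with its log2 change in AGS on the horizontal axis and in HGC-27 on the vertical axis, in 1 panel for GFP control against parental and 1 for MIST1 against the GFP control, with dotted lines at the median of all genes tested. VAMP2 and STX1A lie farthest to the upper right in the first panel and RIMS2 highest in the second, where STXBP2 sits at 0 for HGC-27 because both arrays were under the floor.

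The comparison of MIST1 with parental cells shares its parental arrays with the one above, so both sets of values are given side by side and no overlap between them is drawn. At an adjusted p under 0.05, 1 member was higher (2.44%, VAMP2) and 0 were lower, against 2.13% and 1.17% of all genes. At an unadjusted p under 0.05, 13 members (31.7%) passed, against 26.0% of all genes. At least 1.5-fold higher in both lines were 3 members (7.32%), VAMP2, STX1A and RIMS2, against 3.82% of all genes. None of the 41 was as much lower, against 1.71% of all genes. The VAMP2 change was 2.22-fold (log2 1.15, SE 0.18, limma adjusted p = 0.0419), with 1.45 in AGS and 0.85 in HGC-27. That call was lost without a floor (adjusted p = 0.0524), with the floor at the median (0.0556), without the filter on dim probe sets (0.177), with all its probe sets averaged (0.968), without a trend (0.0817), without cell line as a block (1.0) and without the MIST1 array of AGS (0.117). STX1A read 0.83 higher (SE 0.19, adjusted p = 0.0672) and STX3 0.65 higher (SE 0.20, adjusted p = 0.111). Leaving out the GFP array of HGC-27 gave 2 members called (4.88%, against 6.2% of all genes). Leaving out that of AGS gave 1 (2.44%, against 5.85%). Fits without a parental array leave parental cells with 1 array, so their counts are not read as results.

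MIST1 against the GFP control is the study's comparison for MIST1 itself, with transfection and sorting in both groups. At an adjusted p under 0.05 limma called 0 of 41 members and 0% of all genes, and at an unadjusted p under 0.05 it called 0 members against 1.32% of all genes. No member was at least 1.5-fold higher in both lines, against 0.211% of all genes, or as much lower, against 0.0218%. In the fit of only these 4 arrays 0 members and 62 genes in all were called. In both lines 9 members (22.0%) were higher and 13 (31.7%) lower, against 24.3% and 32.6% of all genes. The members' median difference was -0.02 on the log2 scale, as was that of all genes. Differences of single members ran from -0.24 to 0.31 (AGS) and from -0.40 to 0.73 (HGC-27).

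RIMS2, a scaffold of the presynaptic active zone that also serves insulin and other regulated secretion, had the largest mean difference between MIST1 and the GFP control. It read 44.2, 58.5 and 69.7 in parental, GFP and MIST1 AGS, against 55.2, 53.4 and 88.8 in HGC-27. The array labelled MIST1 was the highest of its line in both. The difference was 0.49 on the log2 scale (SE 0.22, unadjusted p = 0.0641, adjusted p = 1, and 0.289 in the 4-array fit), with 0.25 in AGS and 0.73 in HGC-27. These readings are near the median of all values, and its other 2 probe sets did not pass the filter on dim values. One of these read 16.7 in the GFP control and 26.8 under MIST1 in AGS, but 35.2 and 29.7 in HGC-27. Against parental cells RIMS2 under MIST1 was 0.67 higher (SE 0.22, adjusted p = 0.126).

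The next largest were negative. STX17 read 565 in the GFP control and 480 under MIST1 in AGS, against 326 and 267 in HGC-27 (-0.26, SE 0.18, adjusted p = 1). NAPB differed by -0.21 (SE 0.18, adjusted p = 1), nearly all of it in HGC-27, where it read 106 and 80.8. STX8 differed by -0.19 (SE 0.17, adjusted p = 1), with 640 and 548 in AGS, then 700 and 631 in HGC-27. Of the members that differed most between the lines, VAMP8 differed by -0.12 (SE 0.13) and STX3 by 0.00 (SE 0.20), each within its SE. STXBP2 read 579 in the GFP control and 720 under MIST1 in AGS, a difference of 0.31, the highest of any member there. In HGC-27 it was under the floor in both, so no difference was measured. Of the 4 lists of genes that work with the SNAREs, 0 genes were called by limma in any comparison of conditions. At an unadjusted p under 0.05 there were 0 for MIST1 against the GFP control. For the GFP control against parental, 1 of 17 fusion regulators, 3 of 15 calcium sensors, 3 of 9 exocyst subunits and 1 of 22 other tethers passed at that level, against 23.0% of all genes.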

How the data were processed

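RNA was measured on 6 one-colour Affymetrix arrays, 1 per cell line and condition, with 5 µg of total RNA labelled per array. The authors deposited 1 intensity per probe set on a linear scale. The series design text names dChip. Background correction and between-array scaling are not given in the sources used here. Of 54675 probe sets, 41097 had 1 gene, 1801 several and 11777 none in the platform annotation, and 41043 symbols were updated through RefSeq gene IDs. Values under 17.6, the 25th percentile, were raised to it before log2. Probe sets with at least 2 arrays over the median (50.53) were kept, and each gene was represented by the probe set with the highest mean, giving 13738 genes. limma 3.58.1 in R 4.3.3 (lmFit, eBayes with a trend) was fitted to all 6 arrays with cell line as a block, or with condition for AGS against HGC-27, which left 2 residual degrees of freedom. Two-sided p-values were adjusted by Benjamini-Hochberg over all genes, with a threshold of 0.05. The fits were tested on simulated data. Per the labels, 3 arrays come from each line, so the line is the pairing between conditions. The number of arrays limits the precision. Members described in full were those called, those past 1.5-fold in both lines, the 4 largest changes of a comparison and the 10 largest line differences, with RIMS2 and SNAP25. Members and lists were chosen with earlier results of these data known. Alternatives were the floor, the filter, quantile normalization, the mean of all probe sets, eBayes without a trend, no block, the 4-array fit, other fold limits, leaving out each array, and, chosen after seeing the data, both parental arrays left out of the line comparison.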

Additional observations from a re-analysis of the deposited data

Results flagged for a closer look

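VAMP1, an R-SNARE of secretory vesicles, was lower in both transfected arrays than in the parental array of AGS and higher in both in HGC-27. It read 186, 118 and 139 in parental, GFP and MIST1 AGS, against 70.6, 115 and 122 in HGC-27. On the log2 scale the changes from parental were -0.66 and -0.41 for AGS but 0.71 and 0.79 for HGC-27, and the mean change in HGC-27 exceeded that in AGS by 1.29. The difference between the lines was not tested. The 2 changes of a line share its single parental array. Its other 2 probe sets did not repeat the pattern: one read 114, 75.0 and 72.2 in AGS, against 84.6, 81.1 and 102 in HGC-27, and the other 93.1, 92.7 and 79.2 against 95.3, 75.2 and 87.7.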

How the results depend on the processing

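The block is the cell line, which the replicate numbers name. One result changed direction under an alternative: the members' median for MIST1 against the GFP control, -0.02, was 0.07 without the GFP array of HGC-27 and -0.08 without that of AGS. Between AGS and HGC-27 the main count of 22 members ran from 18 to 29 over the alternatives, and it was 18 with no replicate block (43.9%). The share of all genes called moved with it, from 60.4% to between 50.2% and 72.8% with an array left out and to 54.0% with no block. Without the filter on dim probe sets 20 members (48.8%) were called, against 35.4% of 19775 genes, which then include the dim ones. For MIST1 against the GFP control 0 members were called under every alternative run. For GFP control against parental the count of 0 became 3 in the fit of only the 4 arrays (7.32%, against 6.63% of all genes). It was 2 without the MIST1 array of AGS and 3 without that of HGC-27. These fits took each gene's spread from a trend over all genes. With no replicate block the count stayed at 0. For MIST1 against parental the count of 1 became 0 with no floor, a floor at the median, no filter on dim probe sets, the mean of all probe sets, with no trend and with no replicate block. It became 2 after quantile normalization and ran from 0 to 23 when 1 array was left out. The 2 after quantile normalization were 4.88% of the members, against 4.95% of all genes. The 23 came without the parental array of AGS, a fit that left parental cells with 1 array. The share of all genes called rose there too, so the 23 is not read as a result for the members. In these counts the cause was not tested. With a fold limit of 1.2 in place of 1.5 in both lines, 6 members (14.6%) were higher and 2 (4.88%) lower in GFP controls against parental, where 13.4% and 7.15% of all genes were. For MIST1 against parental cells they were 7 (17.1%) and 3 (7.32%), against 14.4% and 8.2%. For MIST1 against the GFP control they were 0 and 0, against 1.81% and 1.3%. With a limit of 2 the count higher for MIST1 against parental cells was 0, against 0.75% of all genes. With the mean of all probe sets the count higher in the GFP control was 0. Counts past a fold limit in both lines were not made with an array left out, since they need both lines.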

Other observations

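Of 15 tested calcium sensors, limma called 0 in the comparison of GFP control with parental cells, and 3 passed at an unadjusted p under 0.05, against 23.0% of all genes. SYT13, a synaptotagmin-family member, was 0.60 higher on the log2 scale in the GFP control (limma adjusted p = 0.11), and SYT1 was 0.52 higher (adjusted p = 0.13). SYT7, a calcium sensor of lysosome exocytosis, read 30.3, 58.6 and 55.5 in parental, GFP and MIST1 AGS and 28.3, 51.2 and 50.4 in HGC-27. The GFP control was 0.90 higher than parental on the log2 scale (limma adjusted p = 0.089), on a probe set near the median of all values. SYTL4, a Rab27 effector of granule docking, read 115, 242 and 284 in AGS, against 46.6, 51.8 and 59.9 in HGC-27. In both lines its array labelled MIST1 was the highest, and its difference from the GFP control was 0.22 (adjusted p = 1). Among the tethers, TGFBRAP1, an endosomal tether subunit, read 519, 554 and 546 in AGS, against 217, 259 and 258 in HGC-27. COG8, a Golgi tether subunit, read 157, 174 and 174 against 370, 368 and 369.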
